A study of Mus musculus with 12 samples.

Results

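The genes described here encode the 4 receptor subunits for IL-4 and IL-13, Il13ra1, Il4ra, Il2rg and Il13ra2, and were taken by name. All 4 were found among the 20432 genes of the deposited table of normalised counts. They were read in 6 mouse pancreatic ductal adenocarcinoma cell lines, numbered 52205, 52419, 52424, 53105, 53369 and 53371. Each line was sequenced once as the parental culture, labelled wild-type for JAK1, and once as its JAK1-knockout derivative, made by infecting the parental cells with pBabe-Cre-puro retrovirus and raising puromycin through 2, 4 and 7 µg/ml. This gives 6 parental and 6 Cre libraries in 6 pairs. The labels do not give the tumour alleles, the mice or whether the Cre cells are clones or pools, and cultures infected without Cre were not analysed here, so infection, selection and loss of JAK1 cannot be told apart.

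IL-4 and IL-13 are cytokines of allergic and anti-parasite immunity that share receptor chains. The IL-4 receptor alpha chain (Il4ra) joins the common gamma chain (Il2rg) in a receptor of blood cells that binds IL-4, or the IL-13 receptor alpha 1 chain (Il13ra1) in a receptor of epithelial and stromal cells that binds either cytokine. The alpha chain carries JAK1 and the docking sites for STAT6, Il13ra1 carries TYK2, and the common gamma chain carries JAK3. Il13ra2 binds IL-13 tightly, has a short intracellular tail and is best known as a decoy.

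Reads in genes per library ranged from 11477867 to 18044142, and levels are given in CPM, a gene's reads relative to the library total as the authors scaled it. Jak1, the targeted gene, averaged 170 ± 26.7 CPM over the parental and 168 ± 44.2 over the Cre libraries (SD, n = 6 each), and a gene total does not show whether exons were removed. The ductal and epithelial marker list (8 of 8 genes in the table) summed to 444 to 12310 CPM in parental and 360 to 13132 in Cre libraries. Line 52419 was lowest in both, and its markers were divided. In its parental and Cre libraries Krt8, Krt7, Epcam and Cdh1 were under 2 CPM, with keratin Krt8 at 0.818 and 0.538 and the epithelial cadherin Cdh1 at 0.372 and 0.615. There Krt19 was at 15.5 and 19.9 CPM and Krt18 at 253 and 188, each below every other line. The ductal transcription factor Sox9 was at 171 and 149 CPM, inside the range of the other lines. Cdh1 was also low in 53369, at 17.5 and 36.4 CPM. Leukocyte markers (13 of 16 in the table) summed to 2.73 to 29.3 CPM in parental and 3.32 to 10.9 in Cre libraries, and 1 of them, Cd68, passed the filter used for testing. Fibroblast and stellate-cell markers (9 of 10 in the table) summed to 38.5 to 2209 and 32.8 to 1317 CPM, highest in 53369. Endothelial markers summed to at most 7.01 CPM and acinar and endocrine markers to at most 18.8.

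The genes of 3 subunits lie on chromosome X. On GRCm38, Il13ra1 runs from 36112108 to 36171262 on the plus strand, Il2rg from 101264385 to 101268255 on the minus strand and Il13ra2 from 147383478 to 147429192 on the minus strand. Il4ra lies on chromosome 7 from 125552271 to 125579474, plus strand. The 250 bases upstream of each annotated start differed in base composition, and those of 3 subunits are shown for that contrast, 5′ to 3′ on the gene's strand from RefSeq (GRCm38), with each CpG in capitals.
Il13ra1 (chrX:36111858-36112107): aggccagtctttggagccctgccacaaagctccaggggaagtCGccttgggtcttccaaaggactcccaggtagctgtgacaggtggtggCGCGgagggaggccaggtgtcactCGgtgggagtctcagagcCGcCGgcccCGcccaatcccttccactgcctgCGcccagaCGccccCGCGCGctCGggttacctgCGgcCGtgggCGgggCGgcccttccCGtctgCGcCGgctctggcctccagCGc
Il2rg (chrX:101268256-101268505): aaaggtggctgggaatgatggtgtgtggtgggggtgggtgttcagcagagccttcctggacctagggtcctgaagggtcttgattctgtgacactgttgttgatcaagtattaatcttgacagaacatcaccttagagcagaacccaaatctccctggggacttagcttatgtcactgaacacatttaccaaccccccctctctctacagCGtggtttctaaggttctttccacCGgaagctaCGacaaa
Il13ra2 (chrX:147429193-147429442): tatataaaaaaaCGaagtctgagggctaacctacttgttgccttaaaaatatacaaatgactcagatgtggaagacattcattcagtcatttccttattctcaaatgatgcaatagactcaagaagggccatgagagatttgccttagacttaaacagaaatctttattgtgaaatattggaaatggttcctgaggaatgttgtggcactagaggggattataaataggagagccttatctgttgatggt
For Il4ra the GENCODE annotation starts a transcript inside this window, at 125552120, so the window is described by counts only.

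The Il13ra1 window held 21 CpGs at 70.8% G+C and the Il4ra window 17 at 59.6%, while the Il2rg window held 3 at 49.2% and the Il13ra2 window 1 at 36%. The median over 32851 RefSeq windows of this length was 6 CpGs, and 83.7% of windows had fewer than Il13ra1, 76.5% fewer than Il4ra, 29% fewer than Il2rg and 7.87% fewer than Il13ra2. Of the motifs searched on both strands, GGGCGG occurred 3 times for Il13ra1, with 2 of the matches sharing a base, and 1 time for Il4ra (32.7% of all windows hold it). CCGGAAG, an ETS-type motif, was found 1 time for Il2rg, from 17 to 11 bases before the start (6.91% of windows), and TATAAA 2 times for Il13ra2, the nearer from 31 to 26 bases before the start (12.4%). The STAT-type motif TTCNNNGAA (7.02% of windows), the same half-sites 4 bases apart (5.85%) and the C/EBP-type motif TTGCNNAA (9.56%) were in none of the 4 windows.

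Il4ra and Il13ra1 were plainly expressed, and Il2rg and Il13ra2 were near the detection limit in most lines. Per kb of annotated exon (3712 bases for Il13ra1, 6002 for Il4ra, 2387 for Il2rg and 2281 for Il13ra2), the parental level was 25.5 ± 13.7 CPM per kb for Il4ra, 7.45 ± 3.87 for Il13ra1, 0.745 ± 1.29 for Il2rg and 0.179 ± 0.114 for Il13ra2 (SD, n = 6). In the Cre libraries the order was the same, with 17.1 ± 8.28 for Il4ra, 2.87 ± 1.52 for Il13ra1, 0.665 ± 1.09 for Il2rg and 0.128 ± 0.0939 for Il13ra2. Genes at or above 1 CPM in at least 6 libraries were tested. Il13ra1 and Il4ra passed in 12 of 12 libraries, Il2rg reached the level in 4 and Il13ra2 in 0, so Il2rg and Il13ra2 were left out of the test across genes.

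**Figure D1:**
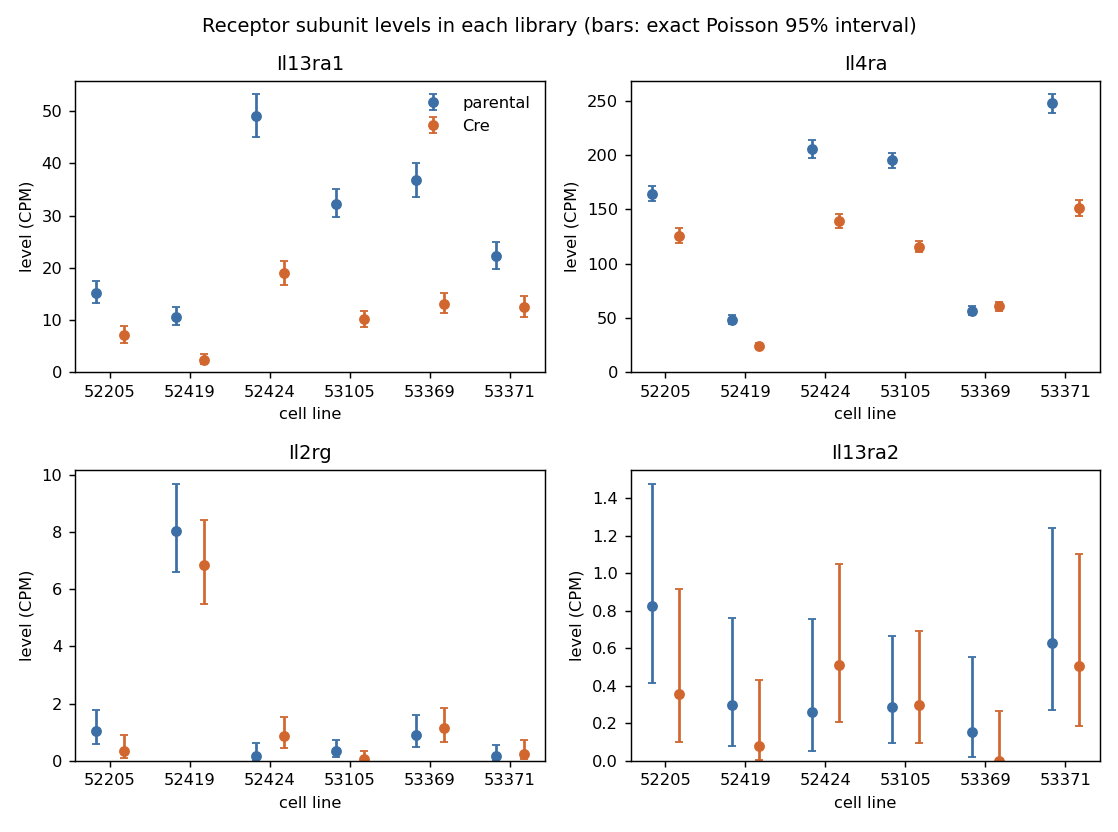
Level of each subunit in CPM (vertical axis, from 0, different for each panel) in each cell line (horizontal axis), parental in blue and Cre in orange, with bars for the exact Poisson 95% interval of the reads. Il13ra1 was lower in the Cre library of every line, Il4ra in all lines but 53369, Il2rg was high in 52419 alone at 8.03 and 6.84 CPM, and the Il13ra2 intervals of parental and Cre overlapped in every line.

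Il13ra1, the chain that joins Il4ra in the receptor that binds either cytokine, fell in every pair. In the parental libraries it was at 49.0 CPM in 52424, 36.7 in 53369, 32.2 in 53105, 22.2 in 53371, 15.2 in 52205 and 10.6 in 52419. In the Cre libraries of the same lines it was at 18.9, 13.1, 10.1, 12.4, 7.08 and 2.38 CPM. The groups overlapped between lines, since Cre 52424, at 18.9, lay above the parental libraries of 52205 and 52419, but within each line the Cre value was the lower. These levels rest on 143 to 569 reads in the parental and 31 to 260 in the Cre libraries.

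The Cre level of Il13ra1 as a share of its parental level was 22.4% in 52419 (95% interval 14.7 to 33.2%), 31.3% in 53105 (26.2 to 37.2%), 35.6% in 53369 (29.9 to 42.3%), 38.6% in 52424 (33.2 to 44.8%), 46.4% in 52205 (35.4 to 60.5%) and 55.9% in 53371 (45.5 to 68.5%). The intervals are exact conditional binomial intervals of the reads and cover counting error only. All 6 lay below 100%, so the fall in each line was larger than counting error, and those of 52419 and 53371 did not overlap. With 1 library per line and condition, the spread between cultures of a line was not measured. In bulk RNA, fewer cells that express a gene and less RNA per cell cannot be told apart.

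Across the 6 pairs the log2 change of Il13ra1 was -1.38 (SE 0.15), a 2.59-fold lower level on the log2(CPM + 0.5) scale, with a 95% confidence interval of -1.71 to -1.04. Its limma p was 0.0273 after Benjamini-Hochberg adjustment over 12734 genes. In this fit 0.0236% of genes were called, all lower (3 genes, with 0 higher where 886 had an unadjusted p under 0.05), and Il13ra1 ranked 2 by p and 12 by the size of its fall. Being lower in 6 of 6 pairs was shared by 4.56% of genes tested, and 4.11% were higher in 6 of 6. Il13ra1 was also called by edgeR (adjusted p = 0.0415) and DESeq2 (adjusted p = 2.16e-11) on recovered reads, which called 0.0393% and 1.63% of genes lower and 0% and 0.487% higher. The limma call was lost without line 52419 (adjusted p = 0.0898), 52424 (0.0952), 53105 (0.0803) or 53369 (0.128), with estimates of -1.49 to -1.26 over the lines left out, and it was lost with no filter on low genes (adjusted p = 0.117).

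None of the 4 nearest tested neighbours of Il13ra1 on chromosome X was called by limma, which called 0.0236% of all genes tested. The nearest tested genes, Dock11 at 35.5 kb before it and Gm6023 at 42.3 kb after it, had log2 changes of 0.10 (limma adjusted p = 0.619) and -0.18 (adjusted p = 0.725), while Lonrf3, 157 kb after it, had 0.18 (adjusted p = 0.621) and Gm2223, 2603 kb before it, had 0.04 (adjusted p = 0.860). Over 409 tested genes of chromosome X the median was -0.04, with 49 lower (12%) and 15 higher (3.67%) at an unadjusted p under 0.05, against 8.18% lower and 6.96% higher over all genes. Line 53105 stood apart, with a chromosome X median of -0.26 against -0.03 to 0.06 in the other lines. Il13ra1 changed by -1.63 in that line, and without it the estimate was -1.32.

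Il4ra, the chain common to both receptors, was the most abundant subunit, with lower Cre values in 5 of 6 lines, but did not pass the test. In the parental libraries it was at 248 CPM in 53371, 206 in 52424, 195 in 53105, 164 in 52205, 56.3 in 53369 and 48.4 in 52419. In the Cre libraries of these lines it was at 151, 139, 116, 126, 60.6 and 24.0 CPM. Lines 53369 and 52419, the ones with least Cdh1, were the lowest in both conditions, and their parental values lay below the Cre values of the other 4 lines.

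The Cre level of Il4ra was 49.5% of the parental level in 52419 (95% counting interval 43.2 to 56.8%), 59.2% in 53105, 61.0% in 53371, 67.5% in 52424 and 76.6% in 52205 (71.6 to 82.0%), each below 100% beyond counting error. In 53369 it was 108% (97.4 to 119%), which does not differ from equal levels beyond counting error. The log2 change over the 6 pairs was -0.55 (SE 0.13, 95% confidence interval -0.84 to -0.26) with limma adjusted p = 0.177, and the unadjusted p of 0.00169 ranked 120 among 12734 genes. At an unadjusted p under 0.05, 8.18% of genes were lower, and 17.8% were lower in at least 5 of 6 pairs. DESeq2 called Il4ra (adjusted p = 0.0108), and edgeR did not (adjusted p = 0.195).
The nearest tested genes on chromosome 7, Nsmce1 at 60.8 kb before and Gtf3c1 at 61.5 kb after Il4ra, had log2 changes of -0.09 and -0.08 (limma adjusted p = 0.644 and 0.593). Further out, Kdm8 at 88.6 kb before had 0.36 (adjusted p = 0.317, lower in 1 of 6 pairs) and D430042O09Rik at 128 kb after had -0.27 (adjusted p = 0.258, lower in 6 of 6 pairs). An antisense gene, Gm44876, overlaps 571 bases of Il4ra exon, and the library protocol names no step that marks strand, so its reads could not be separated.

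The change of Il13ra1 was larger than that of Il4ra. The difference between their log2 changes, Il13ra1 minus Il4ra, was -1.56 in 53369, -0.95 in 52419, -0.88 in 53105, -0.78 in 52424, -0.67 in 52205 and -0.10 in 53371. In 53371 the counting intervals of the subunits' shares overlapped (45.5 to 68.5% and 57.6 to 64.7%), and in the other 5 lines they did not. The mean was -0.82 ± 0.47 (SD, n = 6 pairs) and below 0 in 6 of 6 pairs, with exact 2-sided sign-flip permutation p = 0.0313, the smallest that 6 pairs allow, for the 1 comparison that could be made. Without any 1 line the difference stayed below 0, at -0.97 to -0.68, and the p was 0.0625, the smallest for 5 pairs.

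The ratio of Il13ra1 to Il4ra per kb of exon was lower after Cre in every line. In the parental libraries it was 1.05 in 53369, 0.385 in 52424, 0.355 in 52419, 0.267 in 53105, 0.150 in 52205 and 0.145 in 53371. In the Cre libraries it was 0.349, 0.220, 0.161, 0.141, 0.0910 and 0.133. Parental 53369, where the subunits were nearly level, stood above the other lines, and its ratio was 0.331 times as high after Cre, while that of 53371 was 0.916 times as high.

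**Figure D2:**
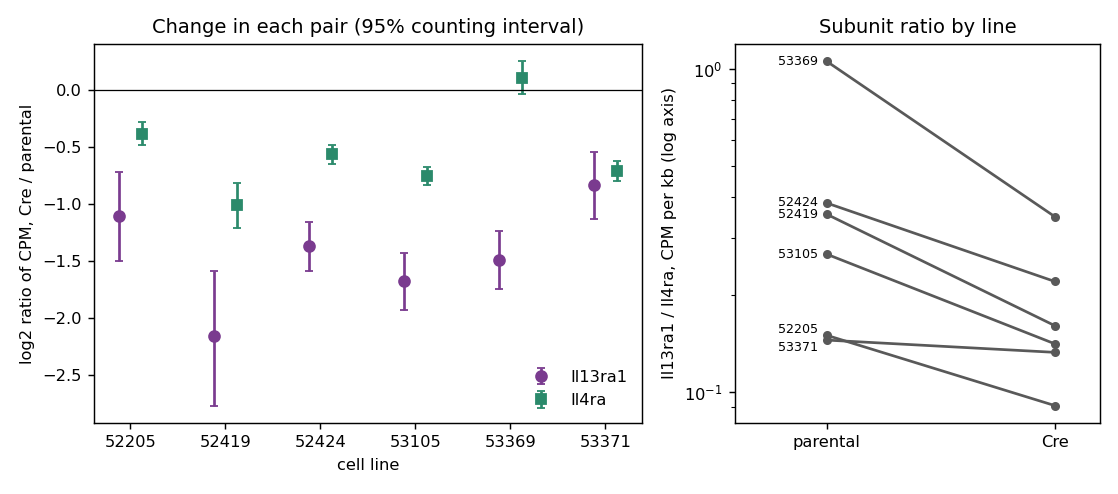
Left, log2 ratio of Cre to parental CPM (no pseudocount) for Il13ra1 (purple circles) and Il4ra (green squares) in each line, with 95% counting intervals. Right, ratio of Il13ra1 to Il4ra in CPM per kb of exon on a log axis, 1 line per cell line; the Il13ra1 points lie below the Il4ra points in every line, and the ratio drops most in 53369, from 1.05 to 0.349.

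Il2rg, the common gamma chain that IL-4 shares with several lymphocyte interleukins, was found at an appreciable level in 1 line. In 52419 it was at 8.03 CPM (108 reads) in parental and 6.84 (89 reads) in Cre cells, and the Cre level was 85.2% of parental with a counting interval of 63.6 to 114%. In the other 5 lines it was at 0.158 to 1.05 CPM in parental and 0.0593 to 1.14 in Cre libraries, from 1 to 16 reads. The intervals of the 52419 libraries lay above those of every other library.

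Most leukocyte markers were at or near 0 in the 52419 libraries. The pan-leukocyte gene Ptprc had 2 and 3 reads in parental and Cre, and Cd8a, Adgre1 and Laptm5 had 0 in both. The summed leukocyte list was at 8.70 and 7.38 CPM there, inside the range of the other lines, and the macrophage gene Cd68 made up 5.13 and 5.38 of it. The integrin gene Itgax had 31 and 5 reads there, and the other listed markers had 0 to 8 each. The part of such cells in the Il2rg level was not tested. Jak3, the kinase that pairs with this chain, was at 5.65 and 2.84 CPM in 52419, the lowest line for it. A protein-coding gene, Gm20489, shares 728 bases of exon with Il2rg on the same strand, so reads there are uncertain. Gm20489 was not found by name among the genes with values, and its part in the Il2rg level was not tested.

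Il2rg did not move one way after Cre. Of the 6 pairs 3 were lower and 3 higher, with a mean log2 change of -0.04 ± 0.67 (SD, n = 6 pairs) and an exact sign-flip permutation p = 0.875. In 52424 it went from 2 to 12 reads, the single pair whose counting interval excluded equal levels (1.13 to 46.6 times as high). In the other 5 pairs the interval held 100%. Without line 52205 the mean was 0.13 and without 53105 it was 0.07.

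Il13ra2, the decoy-type chain, was near the detection limit in all 12 libraries. Parental libraries had 2 to 11 reads, 0.153 to 0.826 CPM with a median of 0.291, and Cre libraries had 0 to 7 reads, up to 0.509 CPM with a median of 0.328. The groups overlapped almost fully, and the counting interval of the ratio held 100% in 6 of 6 pairs. Cre 53369 had 0 reads, for which the exact Poisson 95% upper limit was 0.264 CPM and the floor of 3 reads 0.214 CPM. The mean log2 change was -0.20 ± 0.38 (SD, n = 6 pairs), lower in 4 pairs and higher in 2, with exact sign-flip permutation p = 0.25. A difference was not detectable at this depth.

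Most of the spread of each subunit lay between lines, a share that also holds counting error. For Il13ra2, at 0 to 11 reads per library, it cannot be read as differences between lines. Of the sum of squares over the 12 libraries on the log2(CPM + 0.5) scale, line accounted for 55.2% and the shared Cre difference for 41.8% in Il13ra1, for 88.7% and 8.07% in Il4ra, for 93.9% and 0.0218% in Il2rg, and for 73.0% and 6.90% in Il13ra2. By counting intervals of the parental libraries, neighbours in the order of levels overlapped only for 53369 and 53105 in Il13ra1 and only for 52424 and 53105 in Il4ra. For Il2rg every neighbour below 52419 overlapped, and for Il13ra2 every neighbour did. The orders of the expressed subunits differed, with 53371 highest for Il4ra but below 52424, 53369 and 53105 for Il13ra1.

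The genes whose levels followed Il13ra1 most closely over the 12 libraries were Mbtd1 (Pearson r = 0.94), Stat3 (0.94), Slc20a2 (0.87), Gm5093 (0.85) and Htatip2 (0.83), as a description of libraries that share lines and the Cre contrast. Stat3 encodes the transcription factor downstream of gp130 receptors and Slc20a2 a phosphate transporter. Of these, Mbtd1, Stat3 and Slc20a2 were lower in 6 of 6 pairs, with log2 changes of -0.33, -0.55 and -0.28, and none passed limma (adjusted p = 0.177, 0.137 and 0.248). Il13ra1 had few such genes, 10 at r of 0.8 or more (0.0785% of genes tested).

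Il4ra had many more, 1114 genes at r of 0.8 or more (8.75%). The closest were the lysosomal fucosidase gene Fuca1 (Pearson r = 0.97 over 12 libraries), Dnajb5 (0.97), the kinesin gene Kif21b (0.96), Pitpnc1 (0.96) and the secreted chaperone clusterin, Clu (0.96). Their log2 changes ran from -0.75 for Clu to -0.09 for Fuca1, and none passed limma (adjusted p = 0.154 to 0.585). The r between Il13ra1 and Il4ra was 0.61, rank 364 among the genes like Il13ra1 and rank 2631 among those like Il4ra.

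The kinases bound to these receptors had estimates below 0 in 4 of 4 cases, and 0 passed limma. At an unadjusted p under 0.05, 2 of them were lower, against 8.18% of all genes tested. DESeq2 called Jak3 lower, against 1.63% of all genes, and edgeR called 0. Jak3 ranged over 5.65 to 48.0 CPM before and 2.84 to 41.4 after Cre. It was lower in 6 of 6 pairs, by a mean log2 change of -0.68 (adjusted p = 0.155 by limma). Jak2 was at -0.26 (adjusted p = 0.325), Tyk2, the kinase of Il13ra1, at -0.05 (adjusted p = 0.838) and Jak1, the kinase of Il4ra, at -0.04 (adjusted p = 0.838). The median of the 4 was -0.16 against -0.00024 over all genes tested, and without line 52419 it was -0.07 with 3 of 4 below 0. Tyk2 was lower in 1 pair, 52419, and higher in 5.

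Stat6, the transcription factor that docks on the IL-4 receptor alpha chain, averaged 136 ± 64.4 CPM before and 133 ± 53.2 after Cre (SD, n = 6 each). Its log2 change was -0.01 (95% confidence interval -0.16 to 0.13, limma adjusted p = 0.945), lower in 3 pairs and higher in 3. Of 9 transducers and adaptors 5 had estimates below 0 and 4 above, with a median of -0.01, while 6 were below 0 with scaling by column total or by median of ratios and 7 in the deposited log2 table. None of the 9 passed limma, edgeR or DESeq2, and 0 had an unadjusted p under 0.05. Over all genes tested limma called 0.0236%, and 15.1% had an unadjusted limma p under 0.05 in either direction. For edgeR 0.0393% were called lower and 0% higher, and for DESeq2 1.63% lower and 0.487% higher. The insulin receptor substrates Irs1 and Irs2, which also dock on Il4ra, were at -0.21 and 0.26 (limma adjusted p = 0.421 and 0.492), and the adaptors Grb2 and Stam at -0.09 and -0.06.

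Of 10 negative regulators of IL-4 signalling 7 had estimates below 0, with a median of -0.12, against 6377 of 12734 genes and -0.00024. None passed limma or edgeR. Socs3 and Socs2 had an unadjusted p under 0.05, both lower, and were called by DESeq2 (8.18% and 1.63% of all genes were lower by these rules). Socs3, an inhibitor of JAK activity at receptors, was lower in 6 of 6 pairs, with an estimate of -0.77 (limma adjusted p = 0.154). Socs2, an inhibitor best known at the growth hormone receptor, was at -0.79 (adjusted p = 0.253), Cish at -0.49 (adjusted p = 0.333) and Socs5, which binds the IL-4 receptor alpha chain, at -0.24 (adjusted p = 0.348). The median was -0.05 without line 52424.

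The other chains that pair with the common gamma chain were low. The 5 found by name were at most 1.76 CPM in any library, under the filter, and 1 more was not found. Crlf2, the thymic stromal lymphopoietin receptor chain, which pairs with Il7r and not with the common gamma chain, was kept in the same list and was tested. Crlf2 averaged 12.8 ± 2.63 CPM before and 9.81 ± 2.83 after Cre (SD, n = 6 each), lower in 5 of 6 pairs, with an estimate of -0.38 (limma adjusted p = 0.287). Of 23 further type I cytokine receptors listed, 22 were found by name. Of these 13 were tested, with 7 estimates below 0 and 6 above and a median of -0.14. Osmr, the oncostatin M receptor chain, was called lower (-2.21, limma adjusted p = 0.0181), and 4 were lower and 1 higher at an unadjusted p under 0.05, against 8.18% and 6.96% of all genes. DESeq2 called Osmr and Lepr, the leptin receptor gene, lower, and edgeR called Osmr. No receptor of this list was called without line 52419, 52424 or 53369, and the median was -0.22 without 52424.

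Genes that IL-4 and IL-13 induce through STAT6 in macrophages or epithelia were not found by name, under the filter or not called by limma. Il4 and Il13 themselves were not found by name among the 20432 genes, so their levels were not analysed here. Of 34 target genes listed, 27 were found by name among the genes with values. Of these 14 were tested, 9 with estimates below 0 and 5 above and a median of -0.13. The 13 under the filter reached at most 30.2 CPM in any library. None passed limma or edgeR. Tgm2, a transglutaminase gene, was the 1 with an unadjusted p under 0.05 and the 1 called by DESeq2, against 8.18% and 1.63% of all genes lower. It averaged 81.0 ± 27.5 CPM before and 52.1 ± 26.0 after Cre (SD, n = 6 each), lower in 6 of 6 pairs, with an estimate of -0.68 (limma adjusted p = 0.140). Cish, also in this list, is given above, and Egr2 was at -0.47 (adjusted p = 0.363) and the nuclear receptor Pparg at 0.22 (adjusted p = 0.497).

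**Figure D3:**
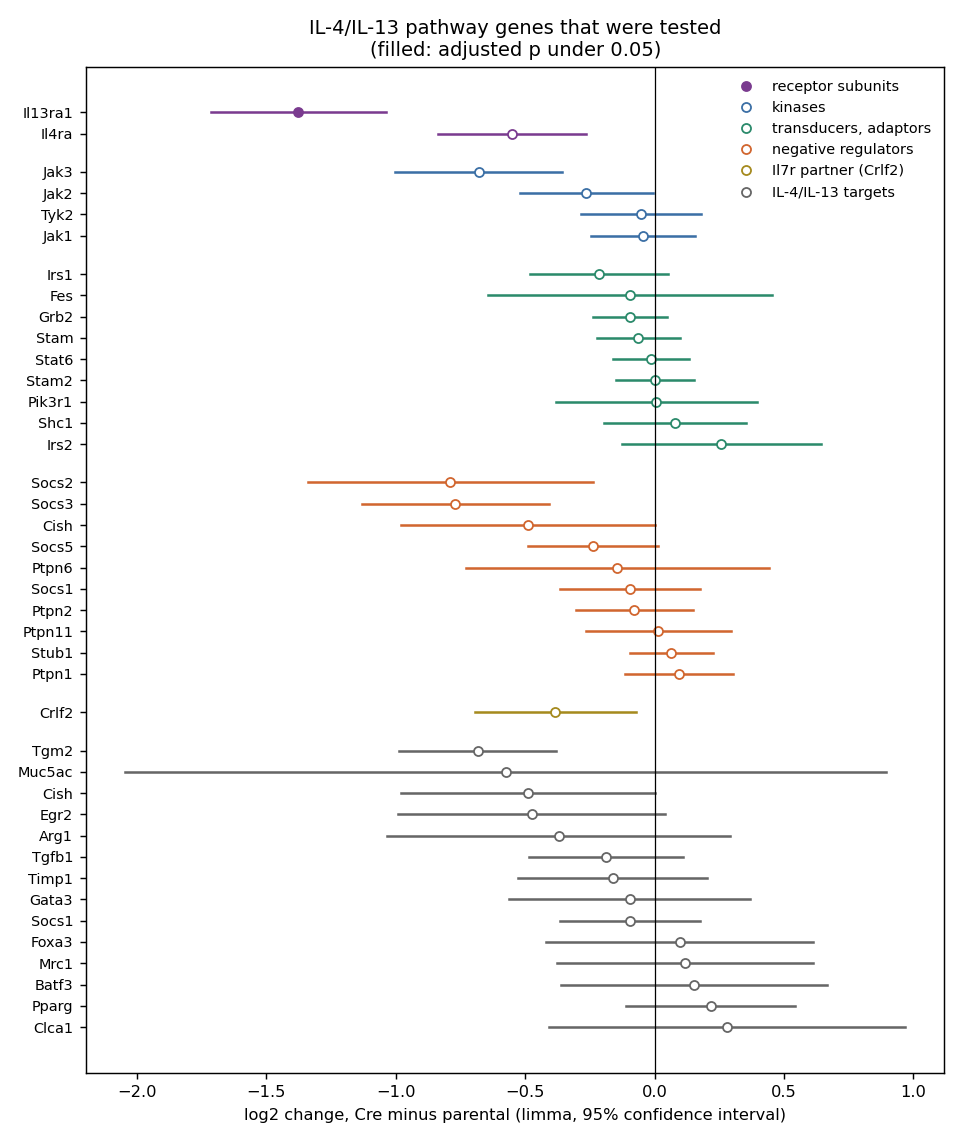
Log2 change, Cre minus parental, from limma with its 95% confidence interval (horizontal axis) for each tested gene of the IL-4 and IL-13 receptor subunits, kinases, transducers and adaptors, negative regulators, Il7r partner Crlf2 and target genes (rows, coloured by list); filled points passed adjusted p under 0.05. Il13ra1 is the 1 filled point, at -1.38, and Stat6 lies at -0.01.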

How the data were processed

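Polyadenylated RNA was captured with oligo(dT) beads and copied with random hexamers, per the labels' protocols. FastQC 0.11.9, featureCounts and edgeR were used on GRCm38 (mm10), per the submitters' processing notes. No source used here names the aligner. The authors deposited a signal per gene, a read count over a scaled library size in CPM, for 20432 genes in 12 libraries, and log2 values for 10903 of them. Dividing each library's signal by the worth of 1 read (0.0569 to 0.0896 CPM) gave whole reads within 0.01 for every value. Entrez numbers were named from the RefSeq table of GRCm38 (19448 matched), and exon lengths came from GENCODE M21.

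Genes at or above 1 CPM of the column total in at least 6 libraries (12734) were fitted as log2(value + 0.5) with limma-trend (limma 3.58.1, R 4.3.3). Cell line was the block, because the series pairs each line with its Cre derivative. Adjusted p-values are Benjamini-Hochberg values, called under 0.05. Deviations from the group mean correlated at 0.73 to 0.95 within pairs, above those with any other line. Members under the filter and the difference between members had exact 2-sided sign-flip permutation tests over 6 pairs. edgeR 4.0.16 and DESeq2 1.42.0 were run on the recovered reads. The members and lists were chosen with earlier results of these data known. Named genes were the members, the 5 most correlated genes for each tested member, JAK kinases and Stat6, and from each list the called genes or else the 4 smallest p. Neighbours were the 2 nearest tested genes on each side. Single marker genes and Lepr were named after their values were seen. Precision is limited by counting at low levels. With 1 library per line and condition, the p-values reflect how the change varied between lines and not between cultures of a line. Those of limma, edgeR and DESeq2 also draw on the spread of the other genes tested.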

Additional observations from a re-analysis of the deposited data

Results flagged for a closer look

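Of 40 groups of 6 values checked, 6 held a library or pair far from the rest by Dixon's ratio, where chance flags about 1 in 20. Il2rg stood apart in line 52419 in both conditions, at 8.03 CPM in the parental and 6.84 CPM in the Cre library, with the gap to the next line at 0.886 and 0.840 of the whole range. The log2 change of Tyk2 in 52419 was -0.57, while the other pairs were between 0 and 0.16. The change of Irs1 in 52205 was -0.86, that of Gm5093 in 52419 was -0.52 and that of Dnajb5 in 53371 was -0.83.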

How the results depend on the processing

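Il13ra1 stayed lower under all 16 alternatives, from -1.49 to -1.26, and Il4ra under all 16, from -0.68 to -0.46. Il13ra1 lost its call without the replicate block that pairs the lines (-1.38, adjusted p = 1.00), with no filter on low genes (-1.38, adjusted p = 0.117) and without 4 of the 6 lines. The cause was not tested. Il4ra was called by DESeq2 alone (-0.56, adjusted p = 0.0108). Il2rg turned to 0.13 without 52205 and to 0.07 without 53105, and its mean was -0.25 to 0.13 over the lines left out. The difference between Il13ra1 and Il4ra was -0.97 to -0.68 over the lines left out, where 5 pairs cannot reach a p under 0.0625. The count of genes called, 3 by limma, was 0 without the block or the filter, 5 by edgeR, 270 by DESeq2 and 0 to 5 over the lines left out. edgeR and DESeq2 were not run for Il2rg and Il13ra2, which were under the filter, and the deposited log2 table does not list them.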
